A study of Mus musculus with 39 samples.

Results

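A set of 62 genes, out of 29980 in the count table, moved in opposite directions in 2 versions of a mouse muscle cell line. The genes were chosen by their levels at both ends of a differentiation course: on day 6 the mean in cells without Flnc (KO) was at least 2 times the KO day 0 mean, and on day 6 the mean in wild-type cells (WT) was at most 0.5 times the WT day 0 mean. Levels are in CPM (a gene's count scaled to a common library total), 0.5 CPM was added to every group mean, and a gene had to reach 5 CPM in at least 1 of these 4 groups, which 10905 genes did. Genes of the Id, Col and Itg families were not taken, which left out 1 gene, Col15a1. The mirror pattern, at most 0.5 times in KO and at least 2 times in WT, was met by 10 genes.

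C2C12 is a line of mouse myoblasts, muscle precursor cells that stop dividing and fuse into myotubes in low serum. The KO cells carried a CRISPR/Cas9 edit directed at the first exon of Flnc, which encodes filamin C, an actin-binding protein of the muscle Z-disc, and the WT cells were unedited C2C12. Stranded mRNA libraries were sequenced from KO cells in growth medium (day 0) and after 1, 2, 4 and 6 days in medium with 2% horse serum, and from WT cells on the same days, with 4 libraries in each of the 10 groups except KO day 2, which had 3. The labels do not say whether the replicates were separate cultures or whether the KO line was 1 clone, so p-values measure the spread between these libraries only and a genotype difference cannot be told apart from a difference between cell lines.

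Library totals ran from 6838281 to 28902526 counts. Flnc lay between 16.0 and 159 CPM in the KO libraries, against 419 to 2210 CPM in the WT libraries, with no overlap. The summed level of 10 muscle lineage markers, 9 of them at 5 CPM or more in some group, was 4880 to 10100 CPM in KO and 15400 to 20000 CPM in WT on day 4. Acta1, Myh3 and Des made up most of the sum. On day 4 mean Des was alike (3110 CPM in KO and 3090 CPM in WT) and Myod1 was higher in KO (267 and 123 CPM). The other markers had lower means in KO. On the same day the mitochondrial share of counts was 3.59% to 6.21% in KO and 2.41% to 4.39% in WT. KO day 1 replicate 3 stood apart, with a mean correlation of 0.917 with the other libraries of its group. In bulk RNA, fewer cells of a type and less RNA per cell cannot be told apart.

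Myoblasts that differentiate turn off much of what serves a single motile cell: growth factor and cytokine receptors, secreted matrix proteins, proteases and the surface molecules used to contact neighbours. Several of the 62 genes belong to that repertoire. Oncostatin M, the ligand of Osmr, signals through JAK and STAT proteins and is known to hold back myoblast differentiation, Socs3 is the feedback inhibitor of that pathway, and Vcam1 is a surface marker of muscle stem cells that takes part in myoblast contact.

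Between day 6 and day 0 the median ratio over the genes was 2.61 in KO (2.01 to 20.0) and 0.336 in WT (0.038 to 0.493), values that chose the genes and are given without a test. The means of days 1, 2 and 4 are described here against the same end points, so their side of day 0 is in part set by the choice and is also given without a test. KO means were above KO day 0 in 58 of 62 genes on day 1, 60 on day 2 and 62 on day 4. WT means were below WT day 0 in only 20 of the genes on day 1, then in 47 on day 2 and 62 on day 4. In WT, 40 of the genes had their highest mean on day 1, after serum was lowered, 19 on day 0 and 3 on day 2. In KO, 28 had it on day 6, 16 on day 4, 15 on day 2 and 3 on day 1. The median gene had gone through 45.1%, 70.7% and 90.6% of its day 0 to day 6 change in mean CPM in KO on days 1, 2 and 4. In WT the same shares were -19.4%, 34.4% and 91.2%, the negative value standing for a level above day 0.

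Taken library by library, the median log2 level of the 62 genes relative to the WT day 0 mean separated the genotypes from day 2 on. It was -0.86 to 0.10 in KO on day 0, -0.52 to 1.02 on day 1, 0.86 to 1.18 on day 2, 0.90 to 1.37 on day 4 and 0.96 to 1.26 on day 6. In WT it was -0.28 to 0.18 on day 0, -0.01 to 0.48 on day 1, -0.49 to -0.27 on day 2, -1.80 to -1.20 on day 4 and -2.08 to -1.35 on day 6. The genotypes overlapped on days 0 and 1 and not on days 2, 4 and 6. Days 0 and 6 chose the genes, so the separation on day 6 is in part set by the choice. The lowest KO value of day 1 was that of replicate 3. Together the genes took 7034 to 8702 CPM of a KO library and 1346 to 1666 CPM of a WT library on day 4.

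**Figure D1:**
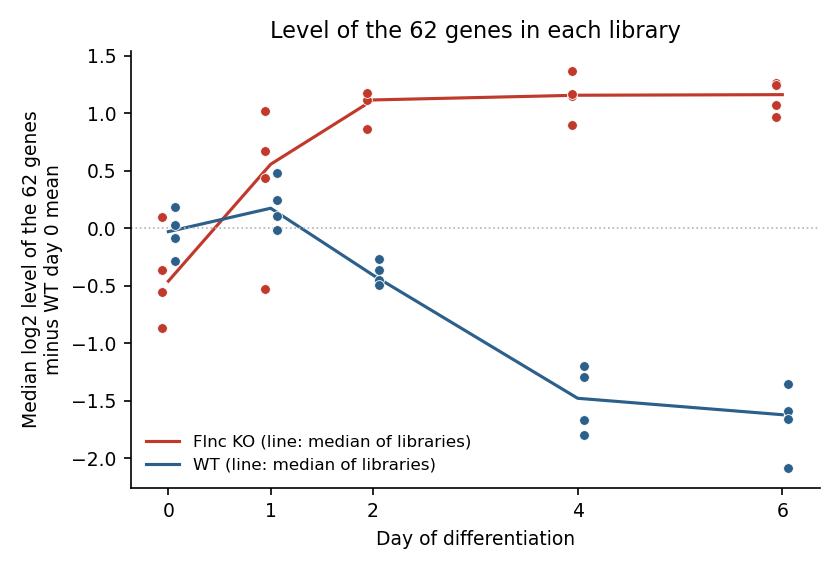
Median log2 level of the 62 genes in each library, relative to the WT day 0 mean, by day of differentiation, with KO in red and WT in blue. Each point is a library and each line joins the medians of the groups; the KO points lie above all WT points on days 2, 4 and 6, of which day 6 (with day 0) chose the genes.

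Tests were made on the 23 libraries of days 1, 2 and 4, which had no part in the choice, with edgeR's quasi-likelihood test and Benjamini-Hochberg adjustment over all 13374 genes that passed a filter on low counts. All 62 genes passed this filter. The libraries tested are not those of the rule, but day 4 lies near day 6 in the course. By day 4 the median gene had gone through 90.6% of its KO change and 91.2% of its WT change. A KO level above WT on day 4, and its interaction with day 1, thus follow in part from the choice. On day 1, KO was called higher in 15 of the 62 genes, where 7.52% of all genes tested were called higher, and lower in 7, against 8.66% of all genes. On day 2 the calls were 34 higher and 4 lower, against 7.45% and 8.64% of all genes. On day 4 they were 54 higher and 1 lower, against 12.2% and 13.6%. The median log2 difference between KO and WT in the 62 genes was 0.40, 1.19 and 2.98 on days 1, 2 and 4, and over all genes tested it was 0.03, -0.01 and 0.00. Of the day 4 calls, 51 of 55 held in every alternative analysis, and the exceptions were Angpt4, Gda, Gpr137b and Pi15. Fewer held in every alternative on day 1 (15 of 22) and day 2 (26 of 38).

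Taken over the 3 days, 15 of the genes were called higher in KO on all 3, 19 on days 2 and 4, and 19 on day 4 only. Another 7 were called lower in KO on day 1. Of these, 3 were also lower on day 2, and 1, Prrg4, was lower on days 2 and 4. Gpr137b, also 1 of the 7, was called higher in KO on day 4. Cd53 and Nrep had no call on any of these days without a block. With the replicate number as a block within each day, the calls were 17 higher and 9 lower on day 1, 42 and 6 on day 2, and 54 and 2 on day 4.

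On day 1 that block added Nrep (-1.89, adjusted p = 0.0322) and Soat1 (-0.57, 0.00949) as lower in KO and Inhbb (1.40, 0.0406) as higher. On day 2 it added Gdpd5 (-1.32, 0.00408) and Lrrc8b (-0.87, 0.0101) as lower. Those it added as higher on day 2 included Mmp19, at 1.93 (0.000621) against 1.05 (0.133) without the block, Fbln7 (2.02, 0.043), Pcdhgc3 (1.17, 0.0147) and Fam102b (1.01, 0.0261). Tmtc4 (0.99, 0.0282), Lrch2 (0.89, 0.0475) and Soat1 (0.47, 0.049) were also added as higher on day 2.

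**Figure D2:**
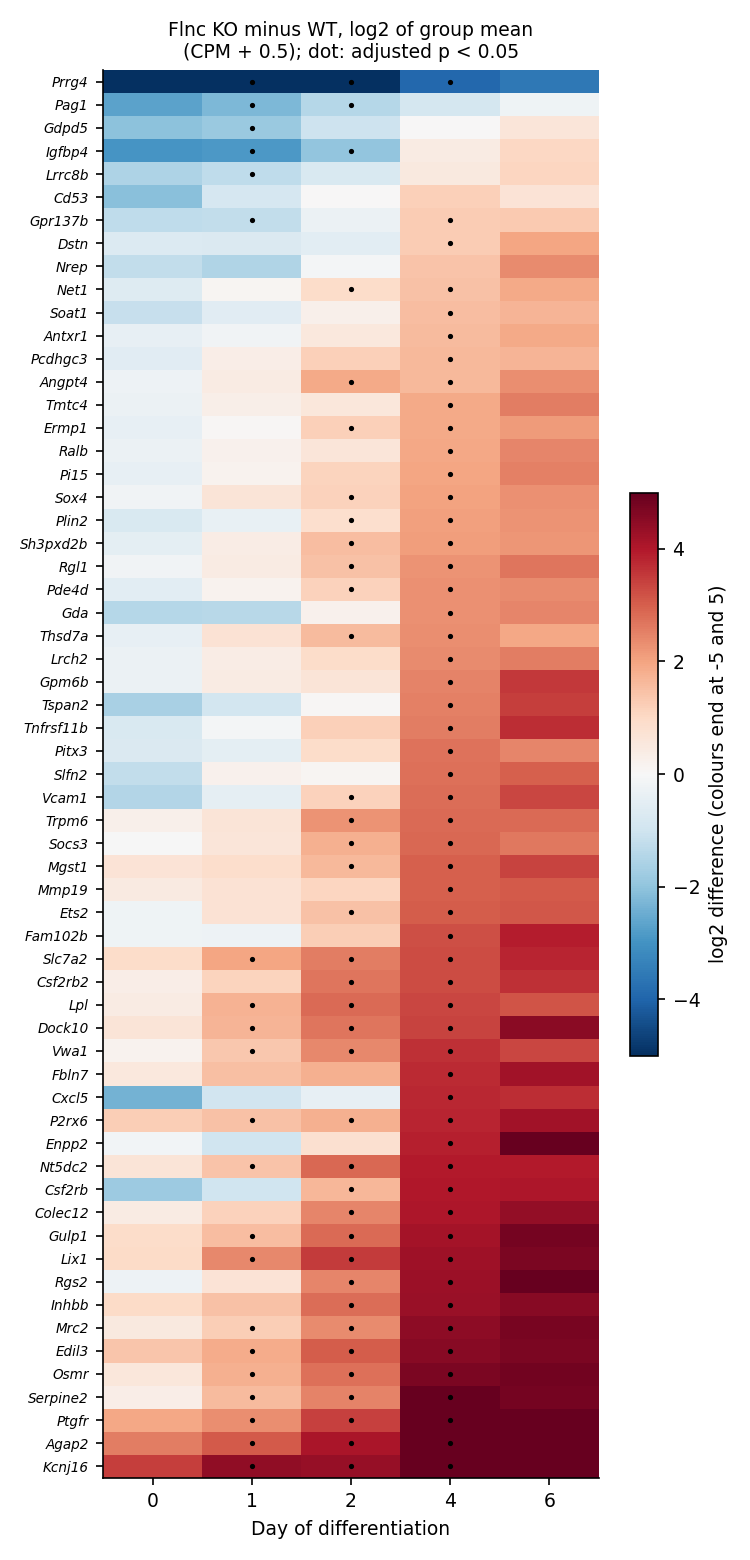
Difference between KO and WT in the genes shown (rows, ordered by day 4) on each day (columns), as the log2 ratio of group means plus 0.5 CPM. Red stands for higher in KO and blue for lower, a dot marks an edgeR call on days 1, 2 or 4, and days 0 and 6 chose the genes and were not tested; most rows turn from pale or blue on day 0 to red on day 4.

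Between day 1 and day 4, more of the 62 genes were called lower in WT than were called higher in KO. In KO, day 4 was called higher than day 1 in 14 of the 62 genes and lower in 0, where 6.17% and 8.62% of all genes were called. DESeq2 called 18 higher and 0 lower, and at an unadjusted p under 0.05 both tools had 26 higher and 0 lower. The KO count moved with single libraries, from 7 without KO day 1 replicate 4 and 8 without KO day 4 replicate 5 to 17 without KO day 1 replicate 1 or replicate 5, and it was 24 with the replicate block. It was 11 without KO day 1 replicate 3. Of the 14 calls, 6 held in every alternative. Among genes that rose in KO by the end-point rule without the WT fall, 32.0% were called higher in KO, against 22.6% of the 62 genes. In WT, day 4 was called lower than day 1 in 49 genes and higher in 0, against 16.0% and 13.4% of all genes. These were 79.0% of the 62 genes, and among genes that fell in WT by the rule without the KO rise 69.6% were called lower. Of the 49 calls, 38 held in every alternative. All 62 genes lay below 0 in WT with a median of -1.57, and DESeq2 called 54 lower and 0 higher. At an unadjusted p under 0.05 edgeR had 58 lower and 0 higher in WT, and DESeq2 59 and 0. The median change in KO was 0.61.

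The change between day 1 and day 4 differed between the genotypes in 39 of the 62 genes, all in the direction of KO, where 1.70% of all genes were called in that direction and 1.08% in the other, in which 0 of the 62 were called by edgeR or DESeq2, adjusted or not. All 62 interaction values were above 0, with a median of 2.27 on the log2 scale, and 27 of the 39 calls held in every alternative. Genes that also fell in WT by the same end-point rule but did not reach the KO ratio, 2158 in number, had 5.42% called in the direction of KO. Those that rose in KO without the WT fall, 1398 in number, had 2.79%. Neither set was chosen for opposite changes, so smaller shares there follow in part from the rule. The comparison of day 4 with day 1 shares libraries with the comparison of KO with WT on each of those days, so these counts are not separate evidence.

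**Figure D3:**
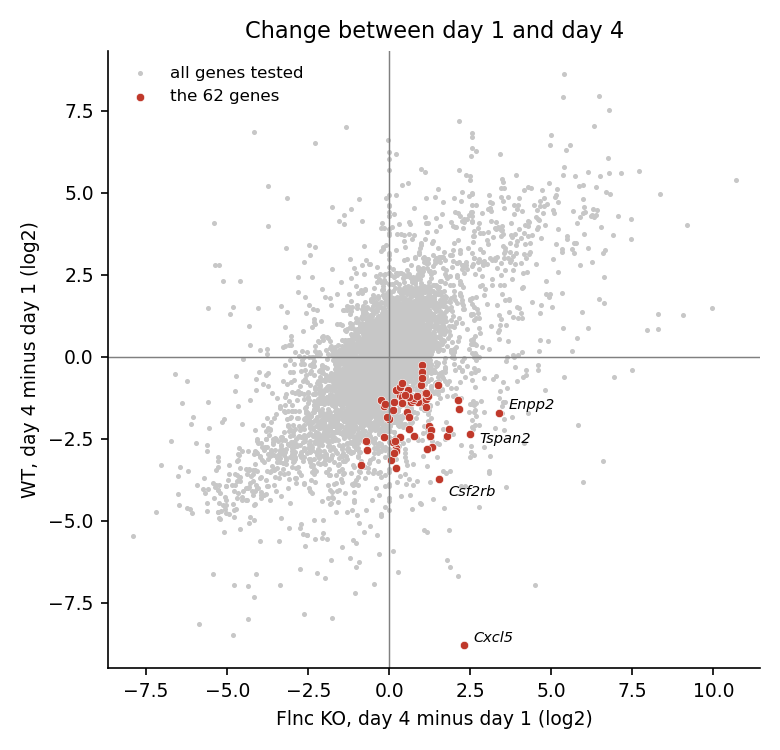
Log2 change between day 1 and day 4 in KO (horizontal axis) and in WT (vertical axis) for all 13374 genes tested (grey) and the 62 genes (red), from the edgeR fit. All red points lie below 0 in WT and 53 of 62 lie above 0 in KO; the Cxcl5 value in WT depends on a prior count, since it had no count in WT on day 4.

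Of the 9 cytokine and growth factor genes, 8 were called higher in KO on day 4, against 12.2% of all genes tested. Over the whole set it was 54 of 62 genes (87.1%). The counts by group here and below are to be read beside that share, and no group was tested against the set. The median difference of the 9 genes was 3.95 on the log2 scale. Cxcl5, a chemokine that draws neutrophils, had 3.65, 4.61, 7.18 and 9.79 CPM in KO on day 4, against 0 counts in all 4 WT libraries. With a floor of 3 counts over the WT group it was at least 138-fold higher in KO, and the bound is 0.5 times as large if both mates of a read pair were counted. On day 1 it had 0.154 to 3.05 CPM in KO and 1.58 to 5.52 CPM in WT, and the groups overlapped. Inhbb encodes the beta B subunit of activins and inhibins. It had 149, 163, 167 and 206 CPM in KO on day 4 and 0.894, 8.52, 11.3 and 12.1 CPM in WT, a log2 difference of 4.28 ± 0.87 (SE, adjusted p = 1.28e-05 in edgeR). Angpt4, an angiopoietin, averaged 5.77 CPM in KO and 1.51 CPM in WT on day 4, a difference of 1.83 (adjusted p = 0.0289). That call was lost without WT day 4 replicate 3 (adjusted p = 0.0733) or 5 (0.062), and without KO day 4 replicate 1 (0.0511), 3 (0.0567) or 5 (0.0592).

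Among the receptors, Osmr (chr15:6813577-6874969, GRCm38), the specific chain of the oncostatin M receptor, had 76.4, 76.5, 91.4 and 112 CPM in KO on day 4. In WT it had 1.79, 2.09, 3.00 and 4.86 CPM, and the groups were far apart. The difference was 4.83 ± 0.33 (SE, adjusted p = 4.95e-07), and it was already 1.81 ± 0.49 on day 1 (0.00531) and 2.73 ± 0.57 on day 2 (0.00029, or 3.33 without WT day 2 replicate 4). Osmr means ran 40.5, 78.0, 112, 89.1 and 88.5 CPM in KO over days 0, 1, 2, 4 and 6, and 26.8, 22.4, 16.3, 2.93 and 2.68 CPM in WT. Between day 1 and day 4 the WT change was -2.80 ± 0.43 (adjusted p = 0.000116) and the KO change 0.21 ± 0.40 (0.801). Socs3, which binds receptors and JAK kinases to stop such signals, had 45.2, 75.3, 79.5 and 84.6 CPM in KO on day 4 and 6.42, 9.16, 9.92 and 11.2 CPM in WT. Its difference was 2.87 ± 0.28 (adjusted p = 1e-07), with a KO change between day 1 and day 4 of 1.09 ± 0.27 (0.00361) and a WT change of -1.12 ± 0.30 (0.00161).

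Csf2rb encodes the shared beta chain of the receptors for interleukin 3, interleukin 5 and GM-CSF, and Csf2rb2 a close copy of it in the mouse genome. The counting of reads between these near-identical copies is uncertain. Csf2rb had 17.7, 26.4, 38.7 and 42.4 CPM in KO on day 4 and 0.447, 0.696, 2.34 and 2.43 CPM in WT, a difference of 4.27 ± 0.61 (SE, adjusted p = 3.08e-05). On day 0 it stood at 2.30 to 32.0 CPM in KO and 10.8 to 80.5 CPM in WT, and the groups overlapped. Csf2rb2 averaged 15.5 CPM in KO and 1.15 CPM in WT on day 4 (difference 3.62, adjusted p = 8.25e-05). Tnfrsf11b, the secreted decoy receptor osteoprotegerin, had 1.74, 3.04, 4.36 and 5.62 CPM in KO and 0, 0.112, 0.174 and 0.585 CPM in WT on day 4. The difference of 3.95 ± 0.66 (adjusted p = 0.00157) was 5.21 without WT day 4 replicate 1, the library with the highest WT value.

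All 10 genes of the matrix, protease and matrix receptor group were called higher in KO on day 4, against 12.2% of all genes tested. The median difference of this group was 3.95. The Pi15 call was lost without KO day 4 replicate 5 (adjusted p = 0.0605). Serpine2 (chr1:79794197-79861180), a secreted inhibitor of thrombin and other serine proteases, had 215, 508, 518 and 540 CPM in KO on day 4. In WT it had 6.03, 10.8, 12.2 and 24.3 CPM. The difference was 4.98 ± 0.53 (SE, adjusted p = 3.15e-07), after 2.46 ± 0.54 on day 2 (0.000762). Mean Serpine2 was 69.4, 193, 304, 445 and 395 CPM in KO over days 0, 1, 2, 4 and 6, and 54.6, 63.7, 53.5, 13.3 and 13.9 CPM in WT. Mmp19, a matrix metalloproteinase, had 33.8, 34.9, 41.5 and 53.4 CPM in KO on day 4, against 3.24, 4.00, 4.80 and 6.73 CPM in WT. Its difference was 3.03 ± 0.27 (adjusted p = 5.84e-05).

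Mrc2 and Colec12 are receptors that take up extracellular ligands. Mrc2 (chr11:105292643-105351139) internalizes collagen for breakdown, and it had 304, 327, 362 and 376 CPM in KO on day 4 and 5.25, 15.8, 18.3 and 20.2 CPM in WT. The difference was 4.42 ± 0.45 (SE, adjusted p = 3e-07). Its KO change between day 1 and day 4 was 0.04 ± 0.34 (adjusted p = 0.969) and its WT change -3.15 ± 0.56 (1.45e-05). Colec12, a scavenger receptor with a lectin domain, had 206, 319, 323 and 431 CPM in KO and 6.26, 9.72, 26.9 and 32.1 CPM in WT on day 4, a difference of 4.00 ± 0.58 (adjusted p = 1.54e-06). On day 1 its difference of 1.18 (adjusted p = 0.0529) was called with the replicate number as a block within each day (1.09, 0.0468). Fbln7, a fibulin of the matrix, had 23.0, 23.3, 28.7 and 30.0 CPM in KO and 0.335, 1.22, 1.86 and 2.69 CPM in WT on day 4, a difference of 4.00 ± 0.59 (0.000567). Edil3, a secreted integrin ligand, averaged 94.4 CPM in KO and 3.54 CPM in WT (difference 4.63, adjusted p = 1.44e-07), and Vwa1, a matrix protein with a von Willebrand A domain, 28.1 and 1.77 CPM (3.89, 1.89e-07). Antxr1, Thsd7a and Pi15 had smaller differences of 1.48, 2.29 and 2.04.

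**Figure D4:**
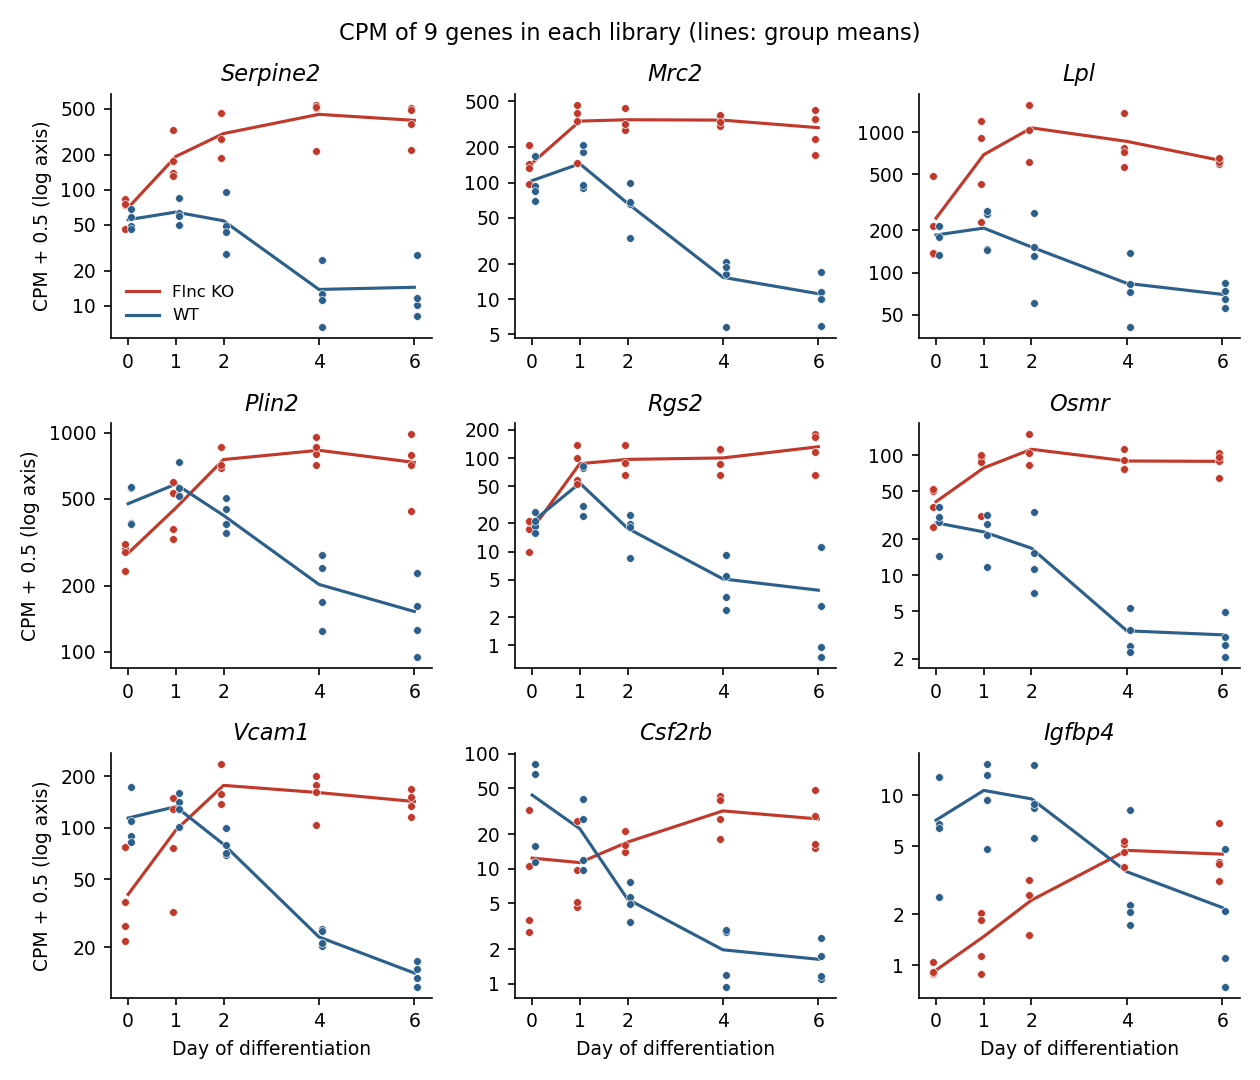
Levels of 9 of the genes in each library (points) with group means (lines), as CPM plus 0.5 on a log axis by day, KO in red and WT in blue. On day 4 the KO points of Serpine2, Mrc2, Lpl, Osmr, Rgs2, Plin2, Vcam1 and Csf2rb lie above all WT points, and those of Igfbp4 overlap WT. Mean levels of Rgs2, Plin2, Vcam1, Csf2rb and Igfbp4 start below WT on day 0. Days 0 and 6 chose the genes.

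Of the 7 genes of lipid handling, 6 were called higher in KO on day 4, against 12.2% of all genes tested. The median difference of this group was 2.99. Plin2 (chr4:86648386-86670060), which coats lipid droplets, had 713, 797, 855 and 954 CPM in KO and 124, 168, 241 and 277 CPM in WT on day 4. The difference was 1.93 ± 0.29 (SE, adjusted p = 8.1e-06). On day 0 the order was the other way, with 233 to 311 CPM in KO and 384 to 562 CPM in WT and no overlap. These are values of a day that chose the genes. Lpl (chr8:68880491-68907448), the secreted lipase that frees fatty acids from lipoproteins, had 562, 727, 772 and 1377 CPM in KO and 40.4, 72.9, 82.2 and 138 CPM in WT on day 4. The Lpl difference was 3.28 ± 0.44 (adjusted p = 6.43e-05), and on day 2 it was 2.78 ± 0.60 (0.000772). Enpp2 encodes autotaxin, the secreted enzyme that makes lysophosphatidic acid. It had 10.3, 27.9, 29.1 and 75.3 CPM in KO and 0.447, 0.522, 1.29 and 5.59 CPM in WT, a difference of 4.03 ± 0.95 (0.00127) that was 5.42 without WT day 4 replicate 4 and 3.42 without KO day 4 replicate 1. Enpp2 also had the largest KO change between day 1 and day 4 of the 62 genes, 3.38 ± 0.89 (adjusted p = 0.00704), or 4.13 without KO day 1 replicate 1 and 2.72 without KO day 4 replicate 1. Ptgfr, the prostaglandin F receptor, averaged 29.6 CPM in KO and 0.272 CPM in WT on day 4, a difference of 6.54 (3.03e-06) that was 7.31 without WT day 4 replicate 4. Soat1, which esterifies cholesterol, averaged 148 CPM in KO and 49.9 CPM in WT (1.48, adjusted p = 0.000304). Gdpd5, a phosphodiesterase of glycerol lipids, averaged 9.37 CPM in KO and 9.36 CPM in WT on day 4 (adjusted p = 0.899).

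Lpl is also one of 7 adipocyte markers, whose summed level on day 4 was 699 to 1480 CPM in KO and 63.8 to 162 CPM in WT. Lpl itself made up most of that sum, with means of 859 CPM in KO and 83.5 CPM in WT. Of the others, Cidec and Plin1 were under 0.5 CPM in every group, Adipoq and Fabp4 stayed below 3 CPM in every library, and Cebpa averaged 90.7 CPM in KO and 1.90 CPM in WT on day 4. Pparg averaged 10.5 CPM in KO and 20.3 CPM in WT. Summed fibroblast markers were 697 to 1260 CPM in KO and 375 to 905 CPM in WT, with 4 of 10 under 0.5 CPM in every group. The others were divided on day 4. Means were higher in KO for Col3a1 (851 CPM in KO and 311 CPM in WT), most of the KO sum, Pdgfra (25.4 and 5.12) and Twist2 (4.09 and 1.67). They were lower in KO for Dcn (17.9 and 366), Col1a1 (1.72 and 4.85) and Pi16 (0.369 and 0.507). The part of these cell types in the differences was not tested.

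All 7 genes of small GTPase and G-protein signalling were called higher in KO on day 4 (12.2% of all genes tested), with a median difference of 2.24. In WT all 7 were called lower on day 4 than on day 1, against 79.0% of the 62 genes and 16.0% of all genes tested. Rgs2 (chr1:143999338-144004161), which speeds the shut-off of G-protein alpha subunits, had 66.2, 86.6, 121 and 126 CPM in KO on day 4 and 1.90, 2.81, 5.04 and 8.70 CPM in WT. The difference was 4.33 ± 0.52 (SE, adjusted p = 3.03e-06). On day 0 Rgs2 had 9.31 to 20.7 CPM in KO and 15.5 to 26.2 CPM in WT, groups that overlapped, and its WT change between day 1 and day 4 was -3.39 ± 0.66 (4.23e-05). Ralb, a small GTPase of exocytosis, had 132, 229, 230 and 251 CPM in KO and 39.4, 51.7, 61.0 and 67.7 CPM in WT on day 4, a difference of 1.85 ± 0.30 (7.75e-06). On day 2 the Ralb difference of 0.60 (adjusted p = 0.113) was called with the block within each day (0.55, 0.0155). Agap2, which acts on Arf GTPases, averaged 70.7 CPM in KO and 1.08 CPM in WT (5.91, 6.89e-09). It was above WT on every day. On day 0, a day that chose the genes, its mean was 23.5 CPM in KO and 3.58 CPM in WT. Rgl1, an activator of Ral, Net1, an activator of RhoA, and Pde4d, which breaks down cyclic AMP, had differences of 2.18, 1.38 and 2.24 on day 4. Dock10, a guanine nucleotide exchange factor, had a difference of 3.96 (adjusted p = 0.000241), or 5.93 without WT day 4 replicate 4.

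All 7 genes of the cytoskeleton, membrane and adhesion group were called higher in KO on day 4, against 12.2% of all genes tested. Dstn, which severs actin filaments, had 322, 438, 471 and 638 CPM in KO and 130, 180, 180 and 286 CPM in WT, a difference of 1.16 ± 0.30 (SE, adjusted p = 0.00422). On day 1 it had 176 to 304 CPM in KO and 326 to 536 CPM in WT, groups that did not overlap, with a difference of -0.68 that was not called (adjusted p = 0.111). Sh3pxd2b, a scaffold of podosomes, had 273, 288, 328 and 438 CPM in KO and 62.0, 75.9, 85.4 and 88.5 CPM in WT on day 4 (2.00 ± 0.21, 6.1e-05). Tspan2, a tetraspanin of the cell membrane, had 1.48, 3.65, 5.11 and 6.96 CPM in KO and 0.117, 0.224, 0.348 and 0.621 CPM in WT (3.60 ± 0.61, 0.000553). Pcdhgc3, a protocadherin, had 439, 456, 622 and 637 CPM in KO and 135, 152, 202 and 213 CPM in WT (1.52 ± 0.23, 0.00629). Its value is uncertain, because it shares exons with other genes of the gamma protocadherin cluster on the same strand. Gulp1, an adaptor for the engulfment of dead cells, averaged 52.9 CPM in KO and 2.45 CPM in WT on day 4 (4.32, adjusted p = 3.58e-06, or 4.91 without WT day 4 replicate 1).

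The 3 transcription factors were called higher in KO on day 4, against 12.2% of all genes tested. Ets2, a factor at the end of growth factor and MAP kinase pathways, had 225, 256, 271 and 368 CPM in KO and 28.5, 30.2, 31.0 and 44.5 CPM in WT (2.96 ± 0.20, SE, adjusted p = 2.16e-05). Sox4, a factor of progenitor cells, had 252, 299, 327 and 473 CPM in KO and 66.7, 69.8, 83.9 and 112 CPM in WT (1.92 ± 0.23, 0.000176). Pitx3, a homeodomain factor, averaged 8.65 CPM in KO and 0.89 CPM in WT (3.17, adjusted p = 0.000147, or 4.16 without WT day 4 replicate 4). The genotypes did not overlap in Ets2 or Sox4 on day 4. Sox4, Pitx3, Vcam1, Enpp2, Ptgfr, Tspan2, Nt5dc2, Mmp19, Vwa1, Pi15, Slc7a2, P2rx6, Tmtc4, Antxr1 and Pcdhgc3 overlap a gene on the opposite strand. Since the strand setting of the counting is not given in the sources used here, their counts may hold reads of that neighbour.

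Of the 10 channel, transporter and enzyme genes, 9 were called higher in KO on day 4, against 12.2% of all genes tested. Nt5dc2, of a family named for nucleotidase domains, had 446, 476, 523 and 667 CPM in KO and 21.0, 27.3, 41.6 and 41.8 CPM in WT (3.91 ± 0.30, SE, adjusted p = 3.75e-07), and was called higher on day 1 (1.48 ± 0.47, 0.00645) and day 2 (2.84 ± 0.43, 3.45e-05) as well. Kcnj16, an inward rectifier potassium channel, averaged 33.1 CPM in KO and 0.185 CPM in WT on day 4 (7.18, 1.63e-06, or 9.29 without WT day 4 replicate 4). It was above WT already on day 0, a day that chose the genes, with 6.81 to 20.7 CPM in KO and 0.554 to 0.782 CPM in WT. Slc7a2, a transporter of cationic amino acids, averaged 86.4 CPM in KO and 8.47 CPM in WT (3.25, 0.00041), and P2rx6, an ATP-gated channel, 37.5 and 2.22 CPM (3.99, 4.43e-08). Gda and Gpr137b had called differences of 2.58 and 1.15 (adjusted p = 0.0275 and 0.022). The Gda difference was 3.30 without WT day 4 replicate 4 and 1.90 without KO day 4 replicate 1, and its call was lost with the replicate block within each day (0.0565) and without KO day 4 replicate 1 (0.114) or 5 (0.0503) or WT day 4 replicate 1 (0.0803) or 3 (0.0648). The Gpr137b call was lost without KO day 4 replicate 1 (0.0758) or 4 (0.0641) or WT day 4 replicate 1 (0.0619), 3 (0.0522) or 5 (0.0611). Of the 4 genes outside these groups, Lix1 averaged 126 CPM in KO and 6.21 CPM in WT (4.24, 6.89e-09) and Fam102b 215 and 22.4 CPM (3.16, 1.91e-05).

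Genes known best from immune cells were divided. Vcam1 (chr3:116109949-116129688) had 103, 160, 176 and 200 CPM in KO on day 4 and 19.8, 20.6, 24.5 and 24.9 CPM in WT. The difference was 2.73 ± 0.20 (SE, adjusted p = 2.34e-06). Its KO means ran 40.2, 96.2, 176, 160 and 142 CPM over days 0, 1, 2, 4 and 6, and its WT means 113, 132, 79.5, 22.5 and 13.6 CPM. The KO libraries of day 0 held 21.3 to 77.1 CPM against 82.2 to 173 CPM in WT, values of a day that chose the genes. Slfn2, of a family linked to T-cell quiescence, had 1.25, 4.46, 7.01 and 7.40 CPM in KO and 0.174, 0.224, 0.351 and 0.518 CPM in WT on day 4 (3.85 ± 0.64, 0.000431). Cd53, a tetraspanin of blood cells, averaged 3.17 CPM in KO and 1.12 CPM in WT (1.39, 0.0536). With the block within each day it was called (1.57, 0.0271). Pag1, an adaptor of lipid rafts, averaged 4.95 CPM in KO and 9.39 CPM in WT (-1.02, 0.114) and was called lower with that block (-0.99, 0.0107). Summed over 7 immune cell markers, the libraries of day 4 held 1.72 to 3.44 CPM in KO and 1.17 to 3.99 CPM in WT, and Ptprc, Itgam, Adgre1 and Cd3e were under 0.5 CPM in every group.

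In a few of the genes KO was called lower than WT on day 1 and the groups overlapped on day 4. Igfbp4, a secreted protein that binds insulin-like growth factors, had a mean of 0.978 CPM in KO and 10.2 CPM in WT on day 1 (-3.37 ± 0.59, SE, adjusted p = 0.000364). On day 4 it had 3.28, 4.13, 4.66 and 4.91 CPM in KO and 1.22, 1.56, 1.76 and 7.66 CPM in WT. Its day 4 difference of 0.38 ± 0.59 (0.674) was 1.39 without WT day 4 replicate 4, which held the highest WT value. Lrrc8b, a subunit of volume-regulated anion channels, was called lower in KO on day 1 (-1.28, adjusted p = 0.00498) and differed by 0.40 on day 4 (0.358).

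Prrg4, a membrane protein with a gamma-carboxyglutamate domain, met the rule with a KO level that stayed far below WT. It had 1.30, 2.25, 3.75 and 5.30 CPM in KO on day 4 against 30.7, 32.5, 64.6 and 90.8 CPM in WT, a difference of -4.24 ± 0.56 (SE, adjusted p = 3.02e-05 in edgeR). On day 0, a day that chose the genes, it had 0.200 to 1.52 CPM in KO and 56.3 to 194 CPM in WT. Prrg4 and Pag1 were the 2 genes whose KO mean stayed below the WT mean on day 4.

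Lists written by pathway, some of the 62 genes included, had mixed directions on day 4, where 12.2% of all genes were called higher and 13.6% lower in KO. Of 60 growth factor ligands and receptors tested, 19 were called higher and 9 lower with a median of 0.63, Cxcl5 (higher) and Igfbp4 (not called) of the 62 genes among them. They also included the receptors Pdgfra (2.21, adjusted p = 0.00103), Pdgfrb (3.28, 0.000328) and Lifr (2.41, 7.4e-06) and the ligands Fgf7 (3.10, 2.62e-05), Hgf (2.49, 0.00127) and Lif (-2.56, 0.000276). Of 46 genes of TGF-beta and BMP signals 15 were higher, Inhbb of the 62 genes among them, and 9 lower (median 0.17), with Bmp4 at 4.09 (4.43e-08) and its antagonist Nog at -6.72 (9.55e-07). Activin subunits went apart, with Inhba at -2.47 (0.00229) and Inhbb, one of the 62 genes, at 4.28. Of 38 matrix proteases and inhibitors 11 were higher, Serpine2 and Mmp19 of the 62 genes among them, and 13 lower (median -0.04). Of 54 matricellular proteins and proteoglycans 23 were higher and 9 lower (median 0.69), with Postn at 5.76 (1.22e-05), Dcn at -4.48 (0.001) and Fbln7, one of the 62 genes, among them. Of 25 genes of satellite and reserve cells 10 were higher and 5 lower (median 0.31), among them Vcam1, also one of the 62, Cxcr4 (2.73, 1.6e-06), Spry2 (1.74, 2.9e-06) and Myf5 (-1.06, 0.041). Of 35 sarcomere genes 0 were higher and 21 lower, with a median of -1.95. How the calls of these other genes moved with each library left out is not given here.

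Promoters from RefSeq on GRCm38.p6, from 250 bases before to 50 bases after the start of transcription, were matched by symbol to 42 of the 62 genes and gave 53 promoters. The following 4 are shown because they carry motifs of factors that act in myoblasts, near genes that diverged between KO and WT. All are on the minus strand and written 5′ to 3′. Capitals mark matches to the searched motifs: CAGCTG, an E-box of the kind MyoD binds, at Plin2 (chr4:86670010-86670309), Rgs2 (chr1:144004100-144004399) and Sox4 (chr13:28953650-28953949), CACGTG, another E-box, at Plin2, GGCGCC, a GC element of BMP-responsive genes, at Rgs2, CATTCC on either strand, the TEAD site, at Sox4, and TGANTCA, the AP-1 site, at Osmr (chr15:6874264-6874563).
Plin2: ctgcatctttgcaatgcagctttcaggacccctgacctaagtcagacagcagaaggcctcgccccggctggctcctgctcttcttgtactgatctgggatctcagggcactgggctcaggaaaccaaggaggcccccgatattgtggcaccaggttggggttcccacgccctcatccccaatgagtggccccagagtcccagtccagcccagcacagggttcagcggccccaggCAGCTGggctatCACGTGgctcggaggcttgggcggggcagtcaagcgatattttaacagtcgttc
Rgs2: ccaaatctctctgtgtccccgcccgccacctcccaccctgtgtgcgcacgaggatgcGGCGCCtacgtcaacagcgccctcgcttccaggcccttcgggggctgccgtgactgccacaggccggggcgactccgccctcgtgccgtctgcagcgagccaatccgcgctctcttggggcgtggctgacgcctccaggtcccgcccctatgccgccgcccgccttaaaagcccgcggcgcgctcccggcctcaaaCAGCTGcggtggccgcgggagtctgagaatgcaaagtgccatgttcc
Sox4: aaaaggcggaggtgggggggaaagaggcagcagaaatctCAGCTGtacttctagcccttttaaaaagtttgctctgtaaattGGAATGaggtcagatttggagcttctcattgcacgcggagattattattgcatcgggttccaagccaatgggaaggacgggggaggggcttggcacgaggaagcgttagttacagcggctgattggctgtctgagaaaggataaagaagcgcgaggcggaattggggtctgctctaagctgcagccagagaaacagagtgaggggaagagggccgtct
Osmr: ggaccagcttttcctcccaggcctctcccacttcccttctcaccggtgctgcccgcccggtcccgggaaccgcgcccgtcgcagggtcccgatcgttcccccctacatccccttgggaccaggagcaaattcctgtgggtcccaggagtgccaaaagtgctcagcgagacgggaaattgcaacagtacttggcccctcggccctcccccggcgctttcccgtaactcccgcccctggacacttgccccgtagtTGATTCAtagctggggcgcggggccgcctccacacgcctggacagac

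On either strand, CAGCTG was in 16 of the 53 promoters (30.2%), against 16.3% of all 32851 promoters of the table. CATTCC was in 15.1% against 14.7%, GGCGCC in 13.2% against 11.9%, CACGTG in 7.55% against 7.15% and the STAT motif TTCNNNGAA, found at Socs3, in 7.55% against 8.30%. TGANTCA was in 3.77% against 7.81% and TATAAA in 7.55% against 13.6%. The palindrome GTCTAGAC, an SMAD site, and the CArG box of SRF were in 0 of the 53 promoters, against 0.213% and 1.63% of all. The 53 promoters had a median GC content of 59.3% and 18 CpG pairs, and all promoters had 52.7% and 7. Several promoters can belong to 1 gene, no motif overlap was corrected for, and a match is a run of letters and not a binding site.

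The edges of the set depended on single libraries. Just inside the KO ratio of 2 lay Mrc2 (2.01), Csf2rb2 (2.02) and Pi15 (2.02), and just outside Lpin2 (1.98), Tmem176b (1.97) and Mex3a (1.95). Just inside the WT ratio of 0.5 lay Sox4 (0.493), Slc7a2 (0.475) and Kcnj16 (0.471), and just outside Gfra1 (0.503), Dpyd (0.516) and Phip (0.517). Near the level of 5 CPM, Cd53 (highest of the 4 means 5.31 CPM), Trpm6 (5.72) and Gda (6.02) were inside, and Pax7 (4.77), Dnah6 (2.80) and Prrg1 (2.75) outside. The rule gave 47 genes without KO day 0 replicate 3 and 77 without KO day 0 replicate 1. Of the 62 genes, 25 were found under all 19 alternative forms of the rule.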

How the data were processed

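The authors deposited 1 table of raw read counts for 29980 genes, and 39 of its columns matched a labelled library; 1 column matched none and was not used. Per the submitters' processing notes, FastQC 0.11.9, STAR 2.7.9, featureCounts 2.0.3 and DESeq2 were used, and the builds GRCm38 and GRCh38 are named with no role. Strand setting and annotation are not given in the sources used here. All gene identifiers were found in GENCODE mouse release 21. Of 560803 values above 0, 64.4% were even, so both mates of a pair may have been counted.

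The members and lists were chosen with earlier results of these data known. CPM came from the deposited counts and the library totals. Tests used edgeR 4.0.16 (R 4.3.3; TMM, filterByExpr, quasi-likelihood) on the 23 libraries of days 1, 2 and 4, with Benjamini-Hochberg adjustment over 13374 genes and a threshold of 0.05. The SE comes from the spread of log2 CPM, with a prior count of 2, in both groups. It is not the error of the fitted edgeR difference or the one behind its adjusted p. The prior count narrows the SE for genes near 0 counts. The fit was tested on simulated data. Alternatives were DESeq2 1.42.0, its size factors, no filter, all 39 libraries, counts halved, the replicate number as a block, and each library left out.

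KO and WT libraries of the same day and number deviated together (correlation 0.30 to 0.593 on day 1, 0.136 to 0.412 on day 2 and 0.136 to 0.521 on day 4), so blocked values are given where a call changed. Values in full were given for the 12 genes with the largest opposite change on days 0 and 6, the 12 with the highest mean level there, and those in a pathway list; Socs3, Prrg4 and the other genes named were chosen after their values were seen. Levels in CPM are not comparable between genes, which differ in length.
1 of the 62 genes enters the counts and is not reported here by itself.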

Additional observations from a re-analysis of the deposited data

Results flagged for a closer look

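In the following genes named by rule, the change between day 1 and day 4 differed between KO and WT by a test of the interaction in edgeR. The log2 differences, with adjusted p, were 5.27 for Csf2rb (0.0013), 5.09 for Enpp2 (0.0155), 4.84 for Tspan2 (0.00628), 3.74 for Igfbp4 (0.011) and 3.59 for Rgs2 (0.0046). They were 3.36 for Serpine2 (0.00401), 3.19 for Mrc2 (0.00276), 3.18 for Vcam1 (0.000507), 3.01 for Osmr (0.00869), 2.82 for Colec12 (0.00967) and 2.43 for Nt5dc2 (0.0101). Plin2, Dstn and Ralb had 2.25 (0.0013), 1.84 (0.0135) and 1.61 (0.0095). Cxcl5 had a fitted value of 11.09 (0.00307), which depends on the prior count because its WT libraries of day 4 held 0 counts. Csf2rb was at 6.12 without KO day 1 replicate 1, Tspan2 at 4.12 without WT day 1 replicate 4, Igfbp4 at 4.75 without WT day 4 replicate 4, and Cxcl5 at 11.91 without KO day 1 replicate 5. Enpp2 was at 6.48 without WT day 4 replicate 4, 5.84 without KO day 1 replicate 1 and 4.50 without KO day 4 replicate 1.

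The calls of 4 genes were lost when single libraries were left out. Slfn2 (3.54, adjusted p = 0.0454) lost it without any of 12 libraries, with the highest p without WT day 1 replicate 3 (0.109). Inhbb (2.79, 0.0412) lost it without any of 11, with the highest p without WT day 1 replicate 4 (0.105). Sh3pxd2b (1.62, 0.0413) lost it without any of 11, again most without WT day 1 replicate 4 (0.105). Ets2 (2.23, 0.0303) lost it without any of 7, most without WT day 1 replicate 4 (0.0771).

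Single libraries stood apart from the other 3 of their group in 14 of 224 groups checked, where chance flags about 1 in 20. WT replicate 4 was the high one in 7 of them. It held 5.59 CPM of Enpp2 on day 4, where the others held 0.447 to 1.29, and 3.11 CPM on day 6, where they held 0.225 to 0.609. It held 7.66 CPM of Igfbp4 and 44.5 CPM of Ets2 on day 4, 211 CPM of Nt5dc2 and 228 CPM of Sh3pxd2b on day 0, and 36.9 CPM of Mmp19 on day 2. In KO, replicate 1 held 8.43 CPM of Enpp2 on day 0 and the lowest Serpine2 level of day 4, 215 CPM. KO replicate 4 held 0.548 CPM of Igfbp4 on day 0, and KO replicate 5 held 42.0 CPM of Mmp19 on day 6. WT replicate 1 held 1.88 CPM of Tnfrsf11b on day 1 and 4.72 CPM of Mmp19 on day 6, and WT replicate 5 had the lowest Inhbb level of day 0, 15.5 CPM.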

How the results depend on the processing

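Of 303 alternative values of the counts and totals, 294 stayed within 1.5 times of the value reported. The count of genes higher on day 4 than on day 1 in KO, 14, was 7 to 17 with 1 library left out (7 without KO day 1 replicate 4, 8 without KO day 4 replicate 5) and 24 with the replicate block. Genes lower in KO on day 2, 4 in number, were 2 to 4 with 1 library left out, and those lower on day 4, 1 in number, were 2 with the replicate block over all days and 2 with it within each day. With 1 library left out, calls in both directions were 16 to 26 on day 1, 28 to 36 on day 2, 52 to 56 on day 4, 42 to 48 in WT and 28 to 43 for the interaction. Without KO day 1 replicate 3, which stood apart, day 1 had 20 higher and 6 lower. Of the alternative values of single genes, 868 kept direction and side of the threshold, 14 gained a call and 43 lost it. The causes were not tested. Between day 4 and day 1 the replicate numbers were not taken as pairs in the main fit. Correlations of libraries with the same number were 0.06 to 0.429 in KO and 0.075 to 0.384 in WT. Of these, 7 of 8 KO libraries and 4 of 8 WT libraries correlated best with their own number. With the replicate block, 58 genes were called lower on day 4 in WT, and 52 were called for the interaction. The rule gave 60 genes with TMM, 55 with 1 CPM added and 58 with medians. Depth limits the low genes most, such as Cxcl5 and Tspan2.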

Other observations

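Lists of pathways that hold none of the 62 genes had these day 4 calls between KO and WT. Of 15 Notch pathway genes tested, 3 were higher in KO and 1 lower (median log2 difference 0.57). Of 40 targets of SRF and YAP, 6 were higher and 10 lower (-0.10), and of 38 Wnt genes 11 and 10 (0.04). Of 42 cell cycle genes, 1 was higher and 7 lower (-0.44), of 55 genes of guidance and adhesion 10 and 15 (-0.32), and of 40 genes of the interferon response and antigen presentation 9 and 3 (0.33).

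Summed markers of other cell types on day 4 were 1.20 to 4.20 CPM in KO and 3.16 to 9.68 CPM in WT for endothelium, 13.3 to 35.8 CPM in KO and 6.09 to 14.2 CPM in WT for osteoblasts, and 113 to 155 CPM in KO and 51.0 to 60.5 CPM in WT for cartilage. The cartilage sum was nearly all Sox9 (mean 140 CPM in KO and 53.1 CPM in WT), with 5 of 7 markers under 0.5 CPM in every group and Col10a1 at 0.0778 CPM in KO and 1.89 CPM in WT. Of the others, 4 of 7 endothelial, 3 of 7 osteoblast, 3 of 6 tendon, 2 of 9 smooth muscle and pericyte and 2 of 7 neural and Schwann markers were under 0.5 CPM in every group. Runx2 made up most of the osteoblast sum (19.5 CPM in KO and 8.76 CPM in WT), Scx of the tendon sum (52.9 CPM in KO and 109 CPM in WT) and Acta2 and Des of the smooth muscle sum. The tendon sum was 44.1 to 65.4 CPM in KO and 73.9 to 139 CPM in WT. Unlike Scx, mean Mkx (4.60 CPM in KO and 0.391 CPM in WT) and Fmod (1.27 and 0 CPM) were higher in KO. Summed markers of smooth muscle and pericytes were 5030 to 13300 CPM in KO and 5100 to 9130 CPM in WT. Those of neural and Schwann cells were 9.13 to 42.8 CPM in KO and 21.6 to 59.1 CPM in WT. Of the 62 genes, 10 lie on chromosome 1, or 16.1%, against 6.0% of all genes tested.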
